A study of Mus musculus with 2 samples.

Results

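The RNA of 10 repressor genes was followed in foetal mouse germ cells, namely Mga, Max, Pcgf6, E2f6 and L3mbtl2 of the germline Polycomb complex PRC1.6, Rnf2 and Cbx2 of Polycomb repressive complex 1 (PRC1), and Ezh2, Eed and Suz12 of Polycomb repressive complex 2 (PRC2). The genes were taken by name through their Ensembl identifiers, and all 10 were found among 42422 genes in the table. Germ cells came from wild type E12.5 gonads bred from Oct4(Pou5fl)-eGFP males, kept on 129svJT2, and Swiss females, and were sorted by fluorescence-activated cell sorting (FACS) for GFP, which the Oct4 transgene drives in germ cells. The gonads of several embryos were pooled for each library, and gonads were sorted either at once (0 h) or after organ culture with the mesonephros attached. XX germ cells were measured at 0 h and after 24 h and 72 h with the vehicle DMSO. XY germ cells were measured at 0 h and after 24 h and 72 h with DMSO, BGJ398 or PD0325901, the drugs at 500 nM. BGJ398 blocks FGF receptors (FGFRi) and PD0325901 blocks the kinases MEK1/2 (MEKi). This gave 10 groups of 4 libraries. The inhibitors were given to whole gonads, somatic cells included, and none of the XX libraries used here had an inhibitor.

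Polycomb complexes silence genes through histones. PRC2 carries the methyltransferase EZH2 or its relative EZH1, held by EED and SUZ12, and puts methyl groups on lysine 27 of histone H3. PRC1 carries RNF2 (also called RING1B) or RING1 and puts ubiquitin on histone H2A. In canonical PRC1 a CBX protein such as CBX2 reads the methyl mark, whereas PRC1.6 is brought to DNA by the sequence-specific pairs MGA with MAX and E2F6 with a DP protein, around PCGF6 and L3MBTL2. In embryonic stem cells PRC1.6 is known for silencing germ cell and meiosis genes. In the foetal gonad, XX germ cells enter meiosis and XY germ cells stop dividing, so these repressors and their targets were measured while the sexes parted.

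Depth, purity and pools applied to all results. The libraries held 1178953 to 5199153 counts in total (median 2135128.5). The counts behind a member ran from 12 for E2f6 in an XX 72 h DMSO library to 1872 for Mga in an XY 72 h FGFRi library, and the lowest counts of E2f6, Cbx2 and Max were the fewest. The 6 germ cell markers summed to 1780 to 5641 CPM (counts scaled to a common library size) in the 40 libraries. The 14 markers of supporting and other somatic cells summed to 19.9 to 133 CPM, with Amh at 0 in every library of 5 of the 10 groups, and the 6 blood markers summed to 11.7 to 467 CPM. In these bulk samples, fewer cells of a kind and less RNA per cell cannot be told apart. The libraries were made in 2 pools of 20. XY 24 h FGFRi and all 72 h groups were in the second pool, so their comparisons with 24 h DMSO or 0 h cannot be told apart from a comparison of pools. The pools reused 16 sample indices, and a few Y-linked counts were present in XX libraries (88 in XX 24 h DMSO and 21 in XX 0 h). The share of counts this implies, 3.25% of the partner library, was subtracted from first-pool libraries only. This left the number of members past the 1.5-fold test unchanged in each of the 15 comparisons. Counts of the second pool stayed as they were, so comparisons within that pool were not tested for shared-index counts.

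The 5 subunits of PRC1.6 that set it apart lie on 4 chromosomes of GRCm39, with the spans of the GENCODE genes, introns included, as follows. Mga (ENSMUSG00000033943) is at chr2:119727694-119800062 on the plus strand, Max (ENSMUSG00000059436) at chr12:76984043-77009009 on the minus strand and E2f6 (ENSMUSG00000057469) at chr12:16860874-16890766 on the plus strand. Pcgf6 (ENSMUSG00000025050) is at chr19:47022052-47039418 on the minus strand and L3mbtl2 (ENSMUSG00000022394) at chr15:81548088-81572516 on the plus strand. Rnf2 (ENSMUSG00000026484), whose protein PRC1 carries as an alternative to RING1, is at chr1:151333755-151376729 on the minus strand. Cbx2 (ENSMUSG00000025577) is at chr11:118913788-118922100 on the plus strand. Of PRC2, Ezh2 (ENSMUSG00000029687) is at chr6:47507073-47572331 and Eed (ENSMUSG00000030619) at chr7:89603862-89630217, both on the minus strand, and Suz12 (ENSMUSG00000017548) is at chr11:79883891-79925421 on the plus strand. None of the members is on the X or the Y chromosome.

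All 10 members were expressed in all 40 libraries, and all passed the filter on low counts. Levels are given in CPM after TMM scaling, which adjusts library sizes for RNA composition. They are not divided by transcript length and are compared only within a gene. Between the highest and the lowest of the 10 group means, E2f6 spanned 6.05-fold, Cbx2 4.11-fold and Ezh2 3.07-fold. Max (2.93-fold), Rnf2 (2.67-fold), Suz12 (2.56-fold), L3mbtl2 (2.45-fold) and Eed (2.13-fold) came next, and Mga (1.91-fold) and Pcgf6 (1.44-fold) moved least.

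**Figure D1:**
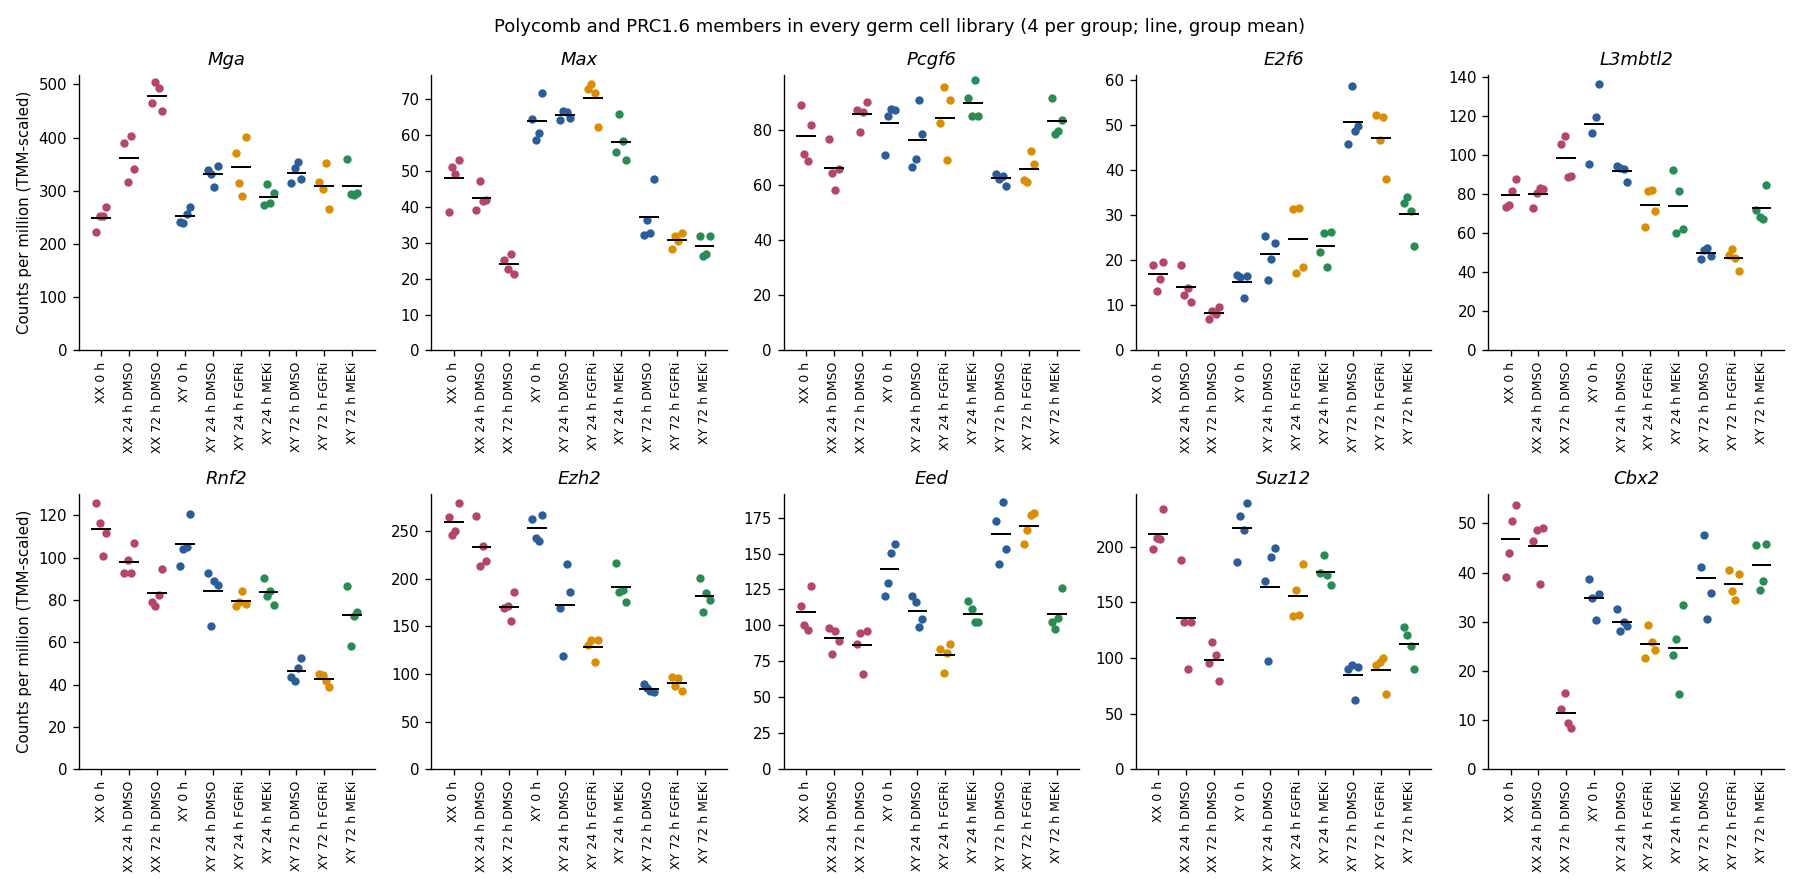
TMM-scaled CPM of the 10 members (y axis, linear from 0) in each of the 40 germ cell libraries, by group (x axis; XX pink, XY at 0 h or in DMSO blue, FGFRi orange, MEKi green; line, mean of 4 libraries). E2f6 was highest in XY germ cells after 72 h in DMSO or FGFRi and lowest in XX germ cells after 72 h, Cbx2 was lowest in XX germ cells after 72 h, and Ezh2 was lowest in XY germ cells after 72 h in DMSO or FGFRi.

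Promoters of the members were searched for the binding letters of the DNA-binding families that also bring PRC1.6 to DNA. The window ran from 250 bases before to 30 bases from the start of the Ensembl canonical transcript, read 5′ to 3′ on the gene's strand from GRCm39. On both strands, the E2F letters were TTCCCGC and TTGGCGC, and the E-box of MAX and its partners was CACGTG. The E2F letters were in 2 of the 10 member promoters and in 7.48% of 21770 protein-coding promoters, and the E-box was in 1 of 10 and in 7.34% of all. Positions are counted from the transcript start, with -1 the base before it. Ezh2 had 3 E2F matches, at -236 (on the minus strand of the gene), -80 and -47, and Suz12 had 1, at -182. Max, whose protein binds the E-box, had an E-box of its own at -25. The 3 promoters are shown because they are the members with a match, and the capitals mark the matched letters in the order Ezh2 (chr6:47572238-47572517, minus strand), Suz12 (chr11:79883646-79883925, plus strand) and Max (chr12:77008971-77009250, minus strand).
Ezh2: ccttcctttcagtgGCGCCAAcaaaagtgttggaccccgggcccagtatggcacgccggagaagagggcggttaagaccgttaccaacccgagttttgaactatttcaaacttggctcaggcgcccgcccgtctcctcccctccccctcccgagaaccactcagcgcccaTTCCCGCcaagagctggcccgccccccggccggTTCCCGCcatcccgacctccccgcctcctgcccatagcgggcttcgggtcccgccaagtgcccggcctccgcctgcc
Suz12: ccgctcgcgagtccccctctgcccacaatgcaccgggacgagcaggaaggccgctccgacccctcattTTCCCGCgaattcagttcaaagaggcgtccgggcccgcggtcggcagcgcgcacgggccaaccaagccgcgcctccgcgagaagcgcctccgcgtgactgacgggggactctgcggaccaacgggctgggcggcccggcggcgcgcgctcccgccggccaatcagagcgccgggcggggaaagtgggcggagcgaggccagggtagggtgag
Max: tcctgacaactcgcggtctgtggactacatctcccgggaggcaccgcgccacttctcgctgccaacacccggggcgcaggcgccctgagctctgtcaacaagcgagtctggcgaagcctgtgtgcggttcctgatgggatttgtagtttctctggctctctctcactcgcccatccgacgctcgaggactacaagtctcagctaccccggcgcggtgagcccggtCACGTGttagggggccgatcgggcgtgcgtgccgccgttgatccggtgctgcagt
A match describes these letters in this window, and binding was not measured.

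After 72 h in DMSO, the sexes differed in most of these genes, and in both directions. XY germ cells had more E2f6, Cbx2 and Eed RNA than XX germ cells and less Ezh2, L3mbtl2 and Rnf2 RNA. Thus subunits of the same complex differed in opposite directions at 72 h. E2f6 was higher and L3mbtl2 and Rnf2 lower within PRC1.6, and Eed was higher and Ezh2 lower within PRC2. These 6 of 10 members passed the test against a fold of 1.5 at a false discovery rate (FDR) of 0.05, beside 41.0% of the 15252 genes tested. The share among all genes was 22.8% for higher and 18.1% for lower, against 3 of 10 members each way. By the test for any difference, 9 of 10 members passed beside 67.4% of all genes, with Mga (333 ± 18.4 against 477.5 ± 25.4 CPM) and Pcgf6 (62.3 ± 1.87 against 85.6 ± 4.68 CPM) lower in XY germ cells and Max (37.3 ± 7.26 against 24.0 ± 2.43 CPM) higher. Suz12 was the member that passed neither, at 97.7 ± 14.7 CPM in XX against 84.7 ± 15.2 CPM in XY germ cells. Values with ± are the mean and SD of 4 libraries, or an estimate and its SE beside a log2 fold change. The median log2 fold change (log2FC) was -0.317 over the members and 0.0996 over all genes.

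E2F6, a repressor of the E2F family that lacks an activation domain, showed the largest sex difference. E2f6 was at 45.7, 58.5, 48.6 and 49.8 CPM in the XY 72 h DMSO libraries and at 6.96, 8.78, 8.03 and 9.70 CPM in the XX 72 h DMSO libraries. Each XY library was far above each XX library, and the log2FC was 2.55 ± 0.271 (SE; FDR = 1.03e-08), a 5.87-fold difference. The XX values rest on 12 to 17 counts per library.

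CBX2, the Polycomb reader known for its part in male sex determination, came next. Cbx2 was at 41.2, 47.7, 30.6 and 35.8 CPM in XY 72 h DMSO and at 12.3, 15.5, 9.37 and 8.41 CPM in XX 72 h DMSO libraries. The groups were apart, with a log2FC of 1.76 ± 0.240 (FDR = 2.57e-05).

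EED, which binds the methyl mark that PRC2 makes, was the third member with more RNA in XY germ cells. Eed was at 173, 143, 186 and 153 CPM in XY and at 87.3, 95.0, 66.2 and 96.4 CPM in XX libraries. The groups did not overlap (log2FC 0.88 ± 0.119, FDR = 0.0201), although 4 of 16 other fits lost this call, 3 of which left out a library. The log2FC was 0.81 (FDR = 0.0745) without XX 72 h DMSO replicate 7, 0.85 (FDR = 0.0533) without XY 72 h DMSO replicate 2 and 0.81 (FDR = 0.0845) without XY 72 h DMSO replicate 5.

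Ezh2, the methyltransferase gene, went the other way. It was at 89.5, 85.7, 82.6 and 81.0 CPM in XY and at 169.7, 171, 155 and 186 CPM in XX libraries. XY libraries spread little and all lay below the lowest XX library (log2FC -1.02 ± 0.115, FDR = 8.49e-04). L3mbtl2, which encodes a PRC1.6 subunit with malignant brain tumour repeats, was at 47.0, 51.4, 52.6 and 48.4 CPM in XY and at 105.5, 110.0, 89.0 and 89.3 CPM in XX libraries. It was lower in every XY library (log2FC -0.99 ± 0.134, FDR = 0.00599).

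Rnf2, the ubiquitin ligase gene, was at 43.4, 41.8, 47.9 and 52.4 CPM in XY and at 79.2, 76.9, 82.3 and 94.5 CPM in XX libraries. No libraries overlapped, with a log2FC of -0.87 ± 0.130 (FDR = 0.0424). The call was close to the threshold and held in 8 of 16 other fits. It was lost on leaving out XX 72 h DMSO replicate 7 (log2FC -0.86, FDR = 0.0578) or 8 (-0.80, FDR = 0.143), or XY 72 h DMSO replicate 2 (-0.83, FDR = 0.114) or 4 (-0.82, FDR = 0.113).

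Before culture fewer members differed between the sexes. At 0 h none of the 10 passed the 1.5-fold test in limma (none at an unadjusted p under 0.05, and none by edgeR or DESeq2), beside 3.0% of all genes. For any difference 4 of 10 passed, beside 24.2%. L3mbtl2 was higher in XY germ cells (116 ± 16.9 against 79.4 ± 6.72 CPM, log2FC 0.51, FDR = 3.28e-04), as were Max (63.9 ± 5.78 against 47.9 ± 6.47 CPM) and Eed (139 ± 16.9 against 109.5 ± 13.8 CPM). Cbx2 was lower in XY germ cells (34.8 ± 3.44 against 46.9 ± 6.53 CPM, log2FC -0.47, FDR = 0.00996). Without XY 0 h replicate 6, only 2 of 10 passed. Blood markers summed to 37.6 to 254 CPM in XY and 22.4 to 41.1 CPM in XX libraries at 0 h, and 3 of the 4 tested were higher in XY germ cells for any difference. The somatic markers summed to 45.5 to 106 CPM in XY and 26.2 to 48.96 CPM in XX libraries, and 2 of the 11 tested were higher in XY germ cells for any difference. The part of these markers in the 0 h results and in the interaction with time was not tested. Cbx2 and L3mbtl2 thus each differed at 0 h in the direction opposite to that at 72 h.

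At 24 h in DMSO none of the members passed the 1.5-fold test in limma (none at an unadjusted p under 0.05), beside 9.99% of all genes. EdgeR's test for any difference, with an observed fold of 1.5, called Max, E2f6 and Cbx2. The share of all genes that this edgeR test calls is not given here or below. For any difference 4 of 10 passed, beside 38.8%. Max was higher in XY germ cells at 64.3 to 66.7 CPM than in XX germ cells at 39.2 to 47.3 CPM (log2FC 0.61 ± 0.124, FDR = 6.38e-05). E2f6 was higher in XY germ cells at 21.3 ± 4.33 against 14.0 ± 3.57 CPM (log2FC 0.70, FDR = 0.0107), although the libraries overlapped. Cbx2 (30.0 ± 1.93 against 45.5 ± 5.33 CPM) and Ezh2 (173 ± 40.5 against 233 ± 23.5 CPM) were lower in XY germ cells. The somatic markers summed to 44.4 to 115 CPM in XY and 19.9 to 34.5 CPM in XX libraries at 24 h, without overlap, and 3 of the 11 tested were higher in XY germ cells for any difference. Their part in the 24 h results was not tested.

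The change in the sex difference between 0 h and 72 h was tested directly as an interaction, in which each sex difference was taken within its pool. It passed the 1.5-fold test for 4 of 10 members, beside 28.9% of all genes, and the test for any difference for 8 of 10, beside 54.0%. The XY minus XX difference grew by 2.63 ± 0.343 on the log2 scale for E2f6 (FDR = 1.97e-06) and by 2.23 ± 0.278 for Cbx2 (FDR = 2.36e-06). It fell by 1.5 ± 0.174 for L3mbtl2 (FDR = 1.79e-05) and by 0.97 ± 0.148 for Ezh2 (FDR = 0.0229). For Ezh2 the call was lost without XX 72 h DMSO replicate 8 (-0.91, FDR = 0.0739) or XY 72 h DMSO replicate 5 (-0.94, FDR = 0.0510), with DESeq2 (-0.96, FDR = 0.0819) and without the filter on low counts (FDR = 0.0604).

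**Figure D2:**
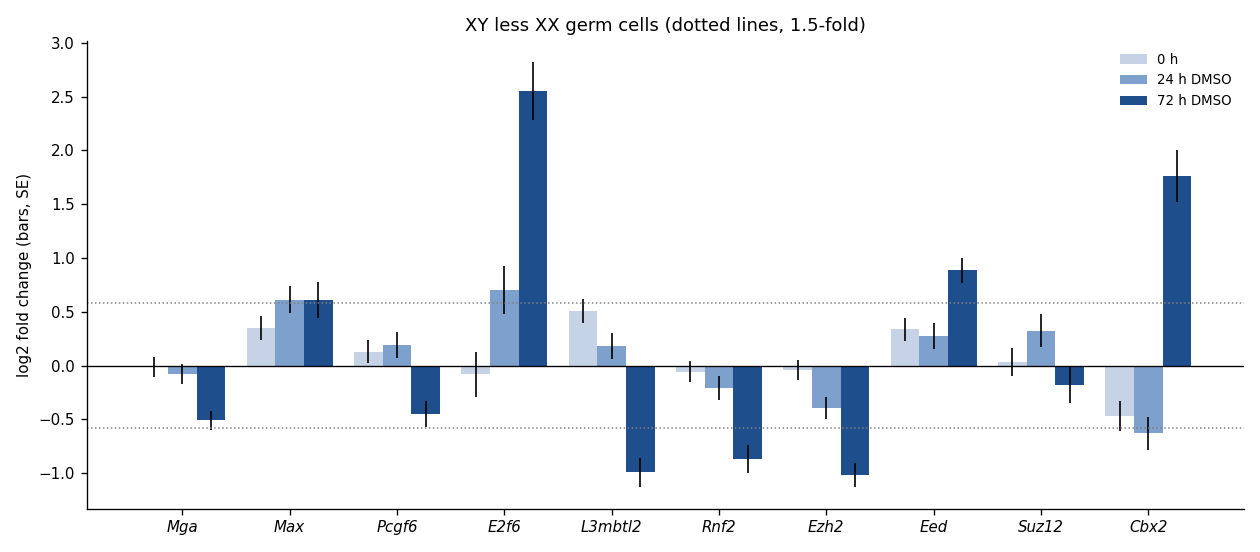
Log2 fold change (y axis) of each member (x axis) in XY less XX germ cells at 0 h (pale), 24 h (mid) and 72 h (dark) in DMSO, from limma with 4 libraries per group. Bars start at 0 with SE as whiskers, and dotted lines mark a fold of 1.5. Cbx2 and L3mbtl2 had opposite signs at 0 h and 72 h, and E2f6 had the largest difference at 72 h, 2.55.

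Changes over time were read within each sex. In XY germ cells, 5 of 10 members passed the 1.5-fold test between 0 h and 72 h in DMSO, beside 35.5% of all genes, with 1 higher (20.2% of all genes) and 4 lower (15.2%). E2f6 rose from 15.3 ± 2.46 CPM at 0 h over 21.3 ± 4.33 at 24 h to 50.6 ± 5.53 at 72 h (72 h against 0 h, log2FC 1.66 ± 0.186, FDR = 1.72e-06). Ezh2 fell from 253 ± 13.9 over 173 ± 40.5 to 84.7 ± 3.78 CPM (log2FC -1.56 ± 0.109, FDR = 4.07e-11). The mean of each gene moved in 1 direction over the 3 times.

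Suz12, the PRC2 subunit that holds the complex together, fell in XY germ cells from 217 ± 22.6 CPM at 0 h to 84.7 ± 15.2 CPM at 72 h (log2FC -1.37 ± 0.150, FDR = 1.08e-05). Rnf2 fell from 107 ± 10.3 to 46.4 ± 4.78 CPM (log2FC -1.22 ± 0.121, FDR = 9.79e-06) and L3mbtl2 from 116 ± 16.9 to 49.9 ± 2.59 CPM (log2FC -1.21 ± 0.127, FDR = 2.86e-05). Eed stood apart from its PRC2 partners, at 139 ± 16.9 CPM at 0 h, 110.0 ± 9.92 at 24 h and 164 ± 19.4 at 72 h. Its 72 h libraries overlapped those at 0 h, and only the test for any difference passed (log2FC 0.25, FDR = 0.0373), in 8 of 15 fits. That test passed for 9 of 10 members beside 65.7% of all genes, with Cbx2 the exception at 34.8 ± 3.44 CPM at 0 h and 38.8 ± 7.30 CPM at 72 h.

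In XX germ cells, 4 of 10 members passed the 1.5-fold test in limma between 0 h and 72 h, beside 37.2% of all genes, with 1 higher (18.8% of all genes) and 3 lower (18.4%). Cbx2 fell from 46.9 ± 6.53 CPM at 0 h to 11.4 ± 3.19 CPM at 72 h (log2FC -2.07 ± 0.232, FDR = 1.68e-07), after 45.5 ± 5.33 CPM at 24 h. The fall thus lay between 24 h and 72 h, which were measured in different pools. Suz12 fell from 212 ± 15.5 to 97.7 ± 14.7 CPM (log2FC -1.16, FDR = 8.24e-04) and Max, the obligate partner of the MYC and MGA proteins, from 47.9 ± 6.47 to 24.0 ± 2.43 CPM (log2FC -1.06, FDR = 0.00561). DESeq2 did not call Max (log2FC -0.93, FDR = 0.0811).

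Mga, which encodes the scaffold of PRC1.6, was the only member that rose in XX germ cells by this test, from 249.5 ± 19.5 CPM at 0 h over 362 ± 41.3 at 24 h to 477.5 ± 25.4 at 72 h (log2FC 0.90 ± 0.0913, FDR = 0.00202). Its partner Max thus fell where Mga rose. In XY germ cells Mga was at 252 ± 14.0, 331 ± 16.9 and 333 ± 18.4 CPM at the 3 times, and the rise passed only the test for any difference (log2FC 0.41, FDR = 1.35e-04). Max was at 63.9 ± 5.78 and 37.3 ± 7.26 CPM at 0 h and 72 h in XY germ cells (log2FC -0.81, FDR = 0.108 over 1.5-fold). Without XY 72 h DMSO replicate 6, the highest of its group, this became -0.91 with FDR = 0.0292, and edgeR called Max too (FDR = 0.0471 by its test against that fold).

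By the test for any difference, 9 of 10 members passed in XX germ cells, beside 65.5% of all genes. L3mbtl2 was at 98.4 ± 10.9 CPM at 72 h against 79.4 ± 6.72 at 0 h (log2FC 0.29, FDR = 0.0280, called in 8 of 15 fits). Ezh2 (170.4 ± 12.4 against 259.8 ± 15.4 CPM), Rnf2 (83.2 ± 7.81 against 114 ± 10.4) and E2f6 (8.37 ± 1.16 against 16.9 ± 2.94) were lower. Eed was lower too (86.2 ± 13.9 against 109.5 ± 13.8 CPM), called in 11 of 15 fits. EdgeR's test against a fold of 1.5 called E2f6 as well (log2FC -1.01, FDR = 0.0317). EdgeR with an observed fold of 1.5 called E2f6 and Ezh2, 6 members in all, with the share of all genes not given here. Pcgf6, the defining PCGF protein of PRC1.6, was the exception in XX germ cells, at 77.6 ± 9.40, 66.2 ± 7.71 and 85.6 ± 4.68 CPM at 0 h, 24 h and 72 h.

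Markers of other cells also moved over the 72 h. Of 11 somatic markers tested, 4 were higher over 1.5-fold in XX and 3 in XY germ cells at 72 h, and 2 of 4 blood markers were lower in XY germ cells. Their part in the results over 72 h was not tested.

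The first 24 h in DMSO were set against 0 h within a single pool. The log2FC of the members ran from -0.53 to 0.49 in XY and from -0.65 to 0.48 in XX germ cells. None passed the 1.5-fold test in limma in either sex (none at an unadjusted p under 0.05), beside 2.94% of all genes in XY and 3.23% in XX germ cells, and edgeR with an observed fold of 1.5 called Suz12 in XX germ cells. For any difference 5 of 10 passed in XY germ cells, beside 24.8%, with Mga higher and L3mbtl2, Rnf2, Ezh2 and Eed lower. Without XY 0 h replicate 6 the number was 2, and without XY 24 h DMSO replicate 5 it was 3. In XX germ cells 2 of 10 passed, beside 30.0%, namely Mga (log2FC 0.48, FDR = 7.30e-05) and Suz12, which was at 136 ± 40.3 CPM (log2FC -0.65, FDR = 3.18e-04).

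**Figure D3:**
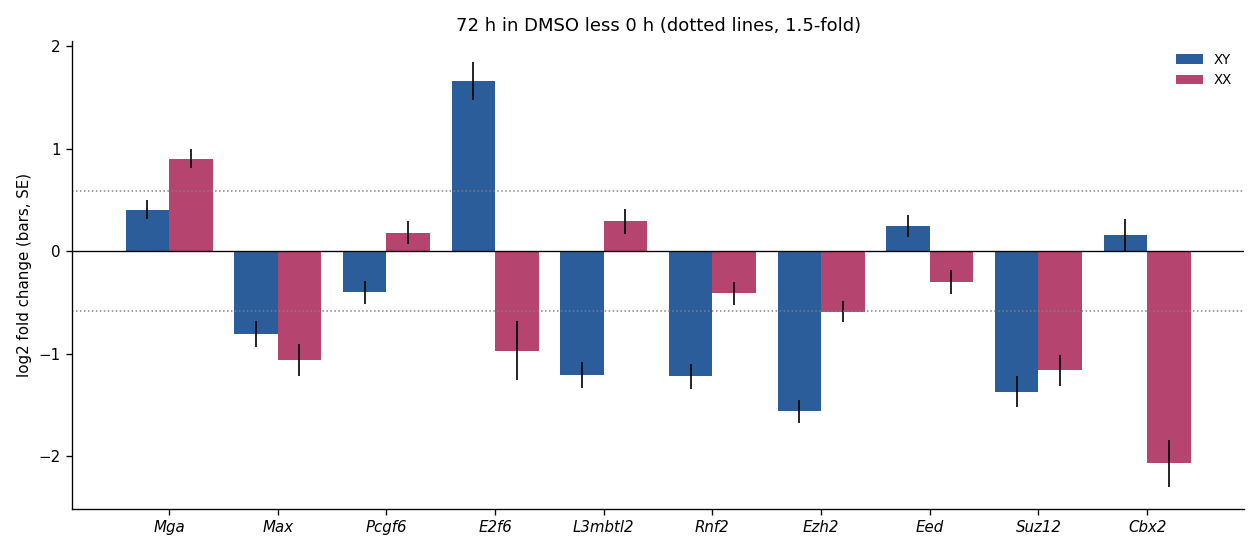
Log2 fold change (y axis) of each member (x axis) after 72 h in DMSO less 0 h, in XY (blue) and XX (pink) germ cells, from limma with 4 libraries per group. Bars start at 0 with SE as whiskers, dotted lines mark a fold of 1.5, and the pools differed between the times. E2f6 rose in XY germ cells (1.66), Cbx2 fell in XX germ cells (-2.07) and Suz12 fell in both (-1.37 and -1.16).

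Inhibition of FGF receptors left the members near their DMSO levels at 72 h. None of the 10 passed the 1.5-fold test or the test for any difference in limma, none at an unadjusted p under 0.05, and none over 1.5-fold by edgeR or DESeq2, beside 0.00656% and 1.08% of all genes. The log2FC of the members ran from -0.26 to 0.10. E2f6 was at 52.1, 46.7, 51.8 and 37.9 CPM in XY 72 h FGFRi and Ezh2 at 96.5, 87.6, 96.3 and 82.3 CPM, and both overlapped the DMSO libraries. The somatic markers summed to 55.0 to 80.7 CPM in FGFRi and 76.6 to 113 CPM in DMSO libraries at 72 h. Acta2 (log2FC -1.61, FDR = 0.00988) and Nr2f2 (-1.35, FDR = 0.0278) were lower in FGFRi for any difference. Their part in the FGFRi results at 72 h, and in the comparison with MEKi, was not tested.

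At 24 h, where FGFRi and DMSO were in different pools, none passed the 1.5-fold test in limma (none at an unadjusted p under 0.05, none by edgeR or DESeq2), beside 0.262% of all genes. The test for any difference passed for 2 of 10, beside 6.33%. Eed was lower in FGFRi at 79.5 ± 8.84 against 110.0 ± 9.92 CPM (log2FC -0.45, FDR = 0.0196), with no overlap, and Ezh2 at 129 ± 11.2 against 173 ± 40.5 CPM (log2FC -0.45, FDR = 0.00741), with overlap. One of these calls was lost without XY 24 h DMSO replicate 4 or 5 or XY 24 h FGFRi replicate 3 or 4.

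MEK1/2 inhibition did not move any member past either test at 24 h, within a single pool. By limma 0 of 10 passed, beside 0.164% over 1.5-fold and 5.89% for any difference among all genes. At an unadjusted p under 0.05 the number was 0 over 1.5-fold and 3 for any difference, and edgeR and DESeq2 called none over 1.5-fold. The log2FC ran from -0.32 to 0.24. Blood markers were higher in these MEKi libraries, with a sum of 181.5 to 466.5 CPM against 22.4 to 114 CPM in DMSO and no overlap, and 3 of the 4 tested passed the 1.5-fold test, Hbb-y (log2FC 3.54, FDR = 0.00545), Hba-x (3.18) and Hba-a2 (2.02). Their part in the MEKi results at 24 h, and in the change to 72 h that builds on them, was not tested. Ezh2 was at 216, 187, 188 and 175 CPM in MEKi and at 169.5, 119, 216 and 186 CPM in DMSO libraries.

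After 72 h of MEKi, 8 of 10 members differed from DMSO by the test for any difference, beside 45.8% of all genes. Ezh2, Rnf2, L3mbtl2, Suz12 and Pcgf6 were higher (5 of 10, beside 22.2% of all genes), and E2f6, Eed and Max were lower (3 of 10, beside 23.6%). The calls of Suz12 and Max were the least stable, in 9 and 10 of 15 fits, and the other 6 held in all 15. Ezh2 alone passed the 1.5-fold test in limma, beside 9.12% of all genes. EdgeR with an observed fold of 1.5 called 4 members, E2f6, Rnf2 and Eed among them. The share of all genes under that edgeR test is not given here.

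Ezh2 was at 201, 165, 185 and 178 CPM in XY 72 h MEKi and at 89.5, 85.7, 82.6 and 81.0 CPM in XY 72 h DMSO libraries. Every MEKi library was above every DMSO library (log2FC 1.09 ± 0.107, FDR = 3.59e-04), a 2.12-fold difference, and the call held in 18 of 18 fits. Rnf2 was at 86.4, 58.0, 72.6 and 74.4 CPM in MEKi (log2FC 0.63, FDR = 1.96e-05 for any difference) and L3mbtl2 at 72.0, 68.6, 67.2 and 84.6 CPM (log2FC 0.52, FDR = 6.05e-04). Both were without overlap with DMSO. Pcgf6 was at 83.2 ± 5.80 against 62.3 ± 1.87 CPM (log2FC 0.38, FDR = 0.00309) and Suz12 at 112 ± 16.3 against 84.7 ± 15.2 CPM (log2FC 0.40, FDR = 0.0280), with overlap for Suz12 only.

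E2f6 was at 32.8, 34.0, 30.9 and 23.1 CPM in XY 72 h MEKi, below all DMSO libraries (log2FC -0.73 ± 0.140, FDR = 2.33e-05 for any difference, FDR = 0.668 over 1.5-fold). Eed was at 103, 97.6, 105 and 126 CPM, also below all DMSO libraries (log2FC -0.62 ± 0.102, FDR = 1.69e-06 for any difference). Max was at 29.2 ± 2.96 against 37.3 ± 7.26 CPM (log2FC -0.37, FDR = 0.0179), without overlap. Cbx2 and Mga passed neither test, with Cbx2 at 41.5 ± 4.94 in MEKi and 38.8 ± 7.30 CPM in DMSO and Mga at 309.8 ± 33.1 and 333 ± 18.4 CPM.

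The change in the MEKi effect between 24 h and 72 h, each effect taken within its pool, passed the 1.5-fold test for 0 of 10 members in limma (1 at an unadjusted p under 0.05, and none by DESeq2 or the edgeR test against that fold), beside 1.89% of all genes. EdgeR with an observed fold of 1.5 called 5, and the share of all genes under that edgeR test is not given here. The test for any difference passed for 5 of 10, beside 23.2%. These were Ezh2 (0.95 ± 0.148, FDR = 3.80e-06), L3mbtl2 (0.80, FDR = 5.99e-04) and Rnf2 (0.66, FDR = 0.00230), more positive at 72 h, and E2f6 (-0.77, FDR = 0.0154) and Eed (-0.61, FDR = 0.00249), more negative. Without XY 24 h DMSO replicate 3, which had the lowest Ezh2 level of its group, Ezh2 passed the 1.5-fold test (1.07, FDR = 0.0302).

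**Figure D4:**
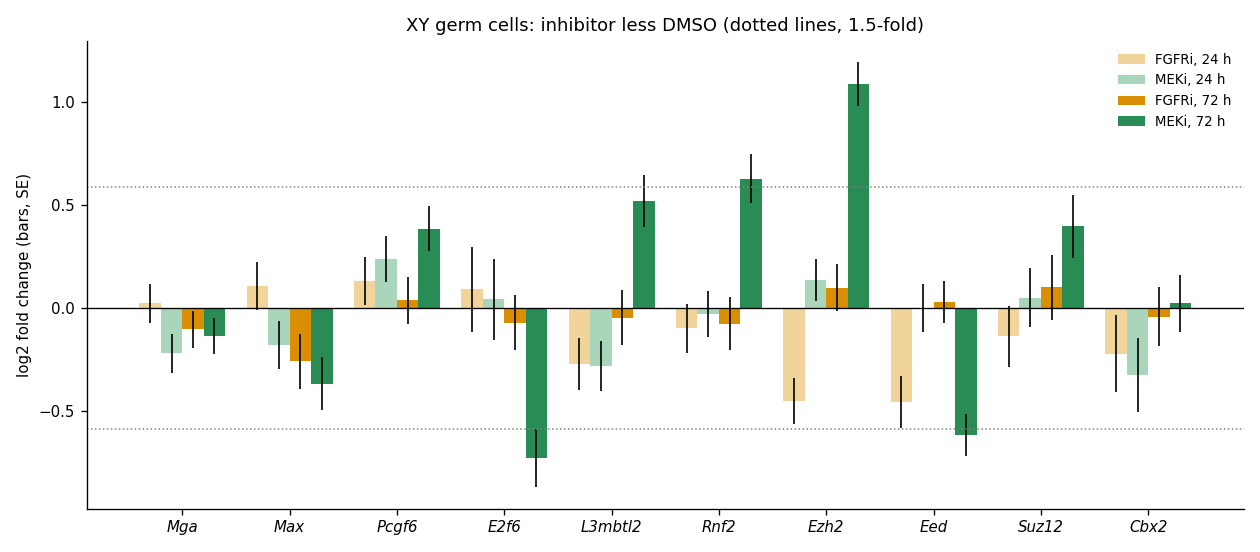
Log2 fold change (y axis) of each member (x axis) in XY germ cells with inhibitor less DMSO, for FGFRi (orange) and MEKi (green) at 24 h (pale) and 72 h (dark), from limma with 4 libraries per group. Bars start at 0 with SE as whiskers, dotted lines mark a fold of 1.5, and 24 h FGFRi was in another pool than 24 h DMSO. Ezh2 at 72 h of MEKi was the one value past the 1.5-fold test in limma (1.09), and all FGFRi values at 72 h were between -0.26 and 0.10.

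Directly compared at the same dose and time, MEKi and FGFRi differed for 6 of 10 members at 72 h by the test for any difference, beside 52.1% of all genes, and for Ezh2 alone over 1.5-fold in limma, beside 12.7%. EdgeR with an observed fold of 1.5 called 5 members, with E2f6, L3mbtl2, Rnf2 and Eed beside Ezh2. The share of all genes under that edgeR test is not given here. Ezh2 was higher with MEKi (182 ± 15.2 against 90.7 ± 6.92 CPM, log2FC 0.99 ± 0.0991, FDR = 0.00133) and this call was lost without the filter on low counts. Rnf2 (log2FC 0.70), L3mbtl2 (0.57) and Pcgf6 (0.35) were also higher and E2f6 (-0.66) and Eed (-0.64) lower with MEKi, each with no overlap between libraries. Max, Mga, Suz12 and Cbx2 did not pass, with log2FC from -0.11 to 0.30.

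Set against XX germ cells at the same time, XY germ cells after 72 h of MEKi had more E2f6 and Cbx2 RNA. E2f6 (log2FC 1.83 ± 0.269, FDR = 1.06e-04) and Cbx2 (1.78 ± 0.230, FDR = 1.62e-05) were higher than in XX 72 h DMSO, as 2 of 10 past the 1.5-fold test beside 30.0% of all genes. By the test for any difference 5 of 10 passed, beside 62.7%, with Eed higher (in 7 of 14 fits) and Mga and L3mbtl2 lower. Ezh2 was at 182 ± 15.2 in XY MEKi and 170.4 ± 12.4 CPM in XX DMSO, with overlap, and Rnf2 at 72.8 ± 11.6 and 83.2 ± 7.81 CPM, also with overlap. The comparisons of MEKi with XY DMSO, of MEKi with XX DMSO and of XY with XX DMSO share libraries.

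Across all groups, the order of levels set the members apart. E2f6 was highest in XY 72 h DMSO and then XY 72 h FGFRi, which overlapped, then lay apart in XY 72 h MEKi, and was lowest in XX 72 h DMSO, apart from XX 24 h DMSO just above it. All groups between XY 72 h MEKi and XX 24 h DMSO overlapped their neighbours. Ezh2 was highest in XX 0 h and XY 0 h, and each of the 7 highest groups overlapped the next, down to XX 72 h DMSO. XY 24 h FGFRi was apart from both neighbours, and XY 72 h FGFRi and XY 72 h DMSO were lowest and overlapped. Cbx2 overlapped from each group to the next throughout, since 1 XY 24 h MEKi library (15.3 CPM) was as low as the highest XX 72 h DMSO library (15.5 CPM).

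The other subunits of the complexes and the genes around them were counted from fixed lists. In the sex comparison at 72 h, each list's counts stand beside 22.8% of all genes higher and 18.1% lower over 1.5-fold. With MEKi at 72 h they stand beside 9.12% either way over 1.5-fold, and for any difference beside 22.2% higher and 23.6% lower. Between 0 h and 72 h the shares were 20.2% higher and 15.2% lower in XY and 18.8% and 18.4% in XX germ cells. Of 10 PRC1.6 partners, 1 was higher and 4 lower over 1.5-fold at 72 h in the XY against XX comparison (median log2FC -0.55). The lower genes included Cbx1 (-1.91), which encodes a heterochromatin protein, Yaf2 (-1.74) and Rybp (-1.73), the alternative subunits beside RNF2, and the deacetylase gene Hdac2 was higher (1.31). Cbx1 (1.03) and Hdac1 (0.97) were the partners past the 1.5-fold test, both higher, in MEKi against DMSO at 72 h, where 6 were higher and 1 lower for any difference (22.2% and 23.6% of all genes).

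Of 10 other PRC2 genes, 2 were higher and 1 lower over 1.5-fold in XY germ cells at 72 h, namely Lcor (1.23) and Ezh1 (1.07) against Rbbp7 (-0.82). EZH1 is the other methyltransferase of PRC2. Ezh1 was at 182 ± 18.2 CPM in XY 72 h DMSO, 86.5 ± 11.4 in XX 72 h DMSO and 94.7 ± 4.81 in XY 72 h MEKi, where it was lower than in XY DMSO (log2FC -0.95 ± 0.105, FDR = 0.00836). Its direction was opposite to that of Ezh2 in the sex comparison at 72 h, in XY germ cells over 72 h (Ezh1 log2FC 1.31, FDR = 4.06e-07) and with MEKi at 72 h. Phf19, a PRC2 accessory gene, was the largest of the list at 0 h (log2FC -2.04 in XY against XX) and fell in both sexes over 72 h (-2.23 in XY and -3.93 in XX germ cells).

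Of 18 other PRC1 genes, the sex comparison at 72 h had 2 higher and 1 lower in XY germ cells over 1.5-fold, namely Phc2 (1.96), Cbx7 (1.13) and Scmh1 (-1.87). Over 72 h in XX germ cells 4 rose and 5 fell, with Pcgf2 (-2.24) the furthest down, and in XY germ cells 4 rose, with Cbx8 (2.21) the furthest up. Of 7 genes that remove the Polycomb marks or assist in it, 2 were higher and 3 lower in XY germ cells at 72 h, with the demethylase gene Kdm6a the furthest down (-2.93). Kdm6a is X-linked and stood at 225 ± 16.5 CPM in XX against 29.3 ± 5.27 CPM in XY germ cells at 72 h. With MEKi at 72 h, 1 of the 7 was higher and 2 were lower for any difference, near the shares of all genes.

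The MYC and MXD proteins share MAX with MGA, and the other E2F proteins share DP partners with E2F6. Of the 8 MYC and MXD genes 7 were tested. Over 72 h, 4 fell in XX and 2 fell and 1 rose in XY germ cells, with Mycn (-3.48 in XX and -3.23 in XY) the furthest down. With MEKi at 72 h Mycl (1.56) and Mycn (1.28) were higher than in DMSO. Of the 7 other E2F genes, all 7 fell over 72 h in XY germ cells, with E2f8 (-4.36) and E2f2 (-2.69) the furthest, where E2f6 rose, and 5 fell in XX germ cells, with E2f7 (-3.22) the furthest. With MEKi, E2f8 (2.59) and E2f3 (1.41) were higher than in DMSO, 6 of 7 were higher for any difference (22.2% of all genes), and E2f6 was lower.

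Germ cell genes known as PRC1.6 targets in embryonic stem cells rose in both sexes, 8 of 12 over 1.5-fold in XY and 11 of 12 in XX germ cells between 0 h and 72 h, with median log2FC 1.93 and 2.41 (all genes, 0.0566 and -0.0121). Taf7l rose by 4.40 and 4.69 and Tex101 by 4.07 and 4.57 on the log2 scale. At 72 h, XY germ cells had less RNA than XX germ cells of 7 of 12 over 1.5-fold, with Meioc (-4.96) and Stra8 (-2.81), which act at the start of meiosis, the furthest down. At 0 h, 5 of 12 were lower in XY germ cells over 1.5-fold and 8 of 12 for any difference, beside 3.0% and 24.2% of all genes in either direction. With MEKi at 72 h, 4 were higher than in DMSO, among them Stra8 (3.17), Meioc (2.56) and Taf7l (1.04), and Mael (-1.07) was lower. The list was chosen with results of these data known, so its direction is a description.

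Proliferation genes moved in the same direction as some members and opposite to others. Of 13 such genes, 12 fell over 1.5-fold in XY and 9 fell and 1 rose in XX germ cells over 72 h. The summed level was 4712 to 5400 CPM in XY 0 h, 1536 to 1852 in XY 72 h DMSO, 1607 to 1764 in XY 72 h FGFRi, 2621 to 3405 in XY 72 h MEKi and 2999 to 3326 in XX 72 h DMSO libraries. In XY germ cells at 72 h the sum was thus higher in every MEKi library than in any DMSO or FGFRi library. Ezh2, Rnf2, L3mbtl2 and Pcgf6 were likewise higher in every MEKi library. E2f6 and Eed were lower in every MEKi library than in any DMSO or FGFRi library. In XX germ cells L3mbtl2 was higher at 72 h than at 0 h (98.4 ± 10.9 against 79.4 ± 6.72 CPM), while 9 of the 13 proliferation genes fell. With MEKi at 72 h, 5 of 13 were higher over 1.5-fold and 13 of 13 for any difference (22.2% of all genes), with Ccne1 (2.83) and Mki67 (2.27) the furthest. Mki67, a marker of dividing cells, was at 239.5 ± 15.0 CPM with MEKi and 50.5 ± 13.8 CPM in DMSO. The part of cell division in the levels of the members was not tested.

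Markers of other cells were read beside the sex and MEKi results. The 14 somatic markers summed to 76.6 to 113 CPM in XY 72 h DMSO, 76.4 to 133 in XY 72 h MEKi and 81.6 to 129 CPM in XX 72 h DMSO libraries, which overlapped. Of the 11 tested, XY 72 h DMSO libraries had 1 higher and 3 lower over 1.5-fold than XX libraries, with Foxl2 at 9.41 ± 5.2 CPM in XX and 0.714 ± 0.875 CPM in XY libraries, and 1 was lower with MEKi. Blood markers summed to 17.0 to 51.8 CPM in XY 72 h DMSO and 15.5 to 22.1 CPM in XX 72 h DMSO libraries, and to at most 26.3 CPM in XY 72 h MEKi libraries, so the groups overlapped. Of the 6 germ cell markers, 4 were higher over 1.5-fold in XY than in XX germ cells at 72 h, among them Pou5f1 at 61.9 ± 2.94 against 8.34 ± 2.99 CPM, the gene whose regulatory DNA drives the sorting reporter, and Dnd1 was lower with MEKi. Dazl and Ddx4, named after their values were seen, were at 897 ± 41.8 and 530.3 ± 33.8 CPM in XY and 1414 ± 107 and 380.4 ± 21.9 CPM in XX germ cells. Their part in the results was not tested.

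**Figure D5:**
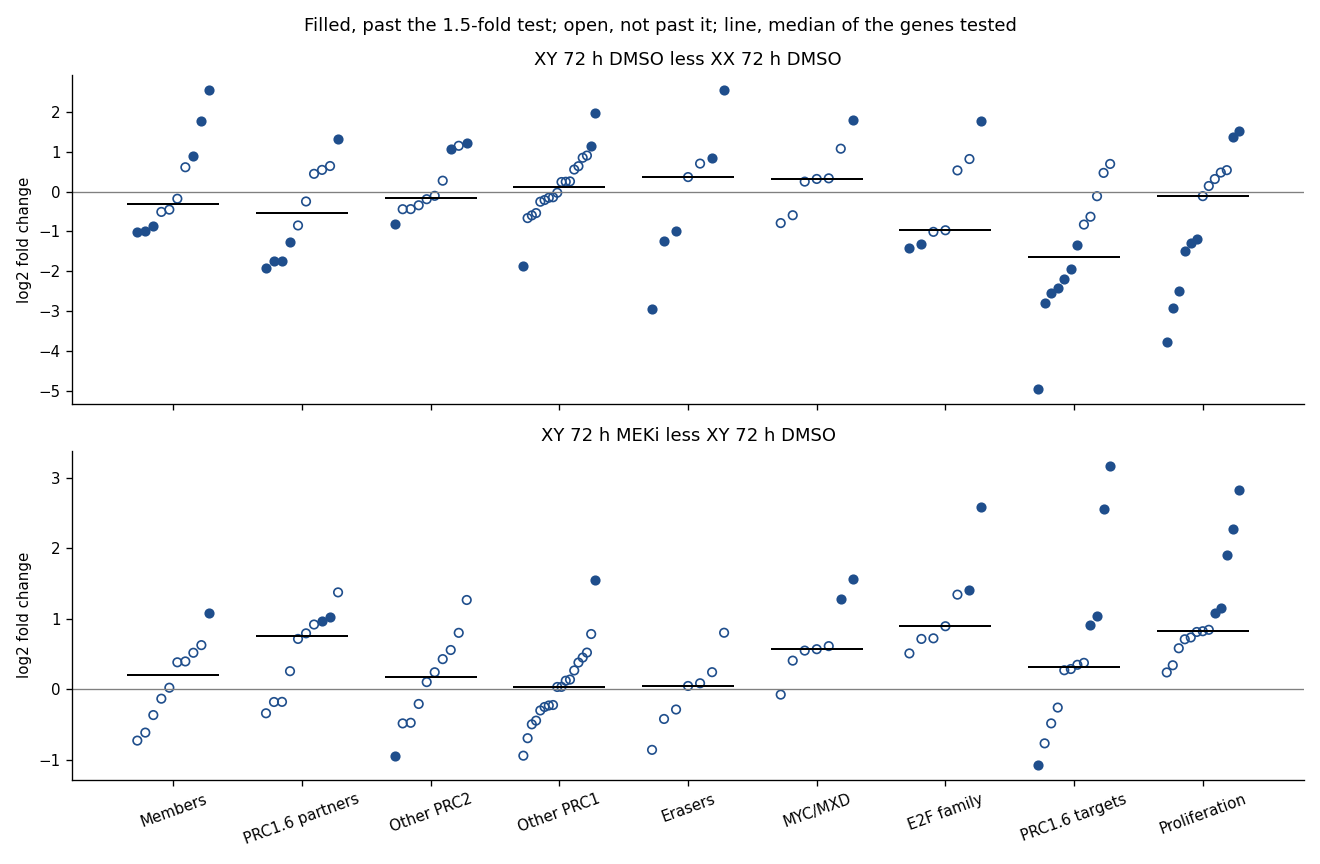
Log2 fold change (y axis) of the members and of the genes of 8 fixed lists (x axis), in XY 72 h DMSO less XX 72 h DMSO (top) and XY 72 h MEKi less XY 72 h DMSO (bottom). Each point is a gene tested, filled where it passed the 1.5-fold test in limma, and lines are medians. The known PRC1.6 targets had the lowest median in the sex comparison (-1.64), and the proliferation and E2F genes the highest with MEKi (0.824 and 0.895).

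For the 3 members with the widest range, the genes with the most similar pattern over the 10 group means of log2 CPM (prior count 2) were found among all genes tested. They share libraries and depth, so the correlation is a description. Ezh2 was matched most closely by Ccne1 (Pearson r = 0.989) and Usp1 (0.975), which encode a cyclin of the step into DNA replication and a deubiquitinase of DNA repair. E2f6 was matched by Zmat4 (0.985), Il4ra (0.983) and Renbp (0.980), and Cbx2 by Sema4d (0.949), Kmt5a (0.940) and Ccdc6 (0.935). Among the members, the lowest correlation over the 10 group means was that of L3mbtl2 with E2f6 (r = -0.86).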

How the data were processed

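Germ cell RNA was measured by poly(A)-primed 3′ sequencing with molecular identifiers in 40 libraries of 10 groups. The authors deposited counts of unique molecules per gene, made with scPipe and Rsubread on GRCm39 with GENCODE genes (release and versions not given in the sources used here). The submitters' processing notes also name limma and edgeR. Of 42422 genes in the table, 2031 had no match by identifier and kept no symbol. The somatic cell libraries were not analysed here. Columns not used numbered 0.

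Genes were kept by filterByExpr (minimum count 10, minimum total 15), which left 15252 genes and 99.2% of counts. Counts were scaled by TMM and fitted with voomWithQualityWeights in limma 3.58.1 (edgeR 4.0.16, R 4.3.3), with 1 mean per group over all 40 libraries. The main test was treat against a fold of 1.5, and the second was for any difference, both at a Benjamini-Hochberg FDR of 0.05 over all genes. Alternatives changed the scaling, filter, weights, samples and tool (DESeq2 1.42.0, edgeR). Others subtracted shared-index counts from first-pool libraries, added a replicate block or left out each library. Scripts were tested on simulated data. Libraries are pools of gonads, so p-values measure the spread between such pools, which may be partly technical. No pair of libraries within a group agreed within sampling noise (chi-square per degree of freedom 2.18 to 7.68 over 60 pairs).

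The members and lists were chosen with earlier results of these data known. All members are named, and at most 4 called genes per list and comparison, those with the largest change. For the 3 members with the largest range, the 3 genes most correlated over the group means are named. Some genes that these rules pick are not reported here.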

Additional observations from a re-analysis of the deposited data

Results flagged for a closer look

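In 4 of 100 groups of 4 libraries (10 members in 10 groups), a library stood apart from the other 3 by Dixon's test, which chance does in about 1 in 20 groups. Mga was highest in XY 72 h MEKi replicate 2 at 359.3 CPM. Pcgf6 was lowest in XY 0 h replicate 2 at 70.6 CPM, and E2f6 was lowest in XY 0 h replicate 5 at 11.6 CPM. Suz12 was lowest in XY 72 h DMSO replicate 5 at 61.9 CPM.

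The sex difference changed between 0 h and 72 h in 4 members by the interaction over 1.5-fold in limma. The change in the XY minus XX log2 difference was 2.63 for E2f6, 2.23 for Cbx2, -1.50 for L3mbtl2 and -0.97 for Ezh2.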

How the results depend on the processing

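No log2 fold change of a member reversed its call under any alternative. With edgeR's quasi-likelihood test and an observed fold of 1.5, the number of members called was 3 for XY against XX at 24 h, 1 for XX 24 h against 0 h, 4 for MEKi against DMSO at 72 h, 5 for MEKi against FGFRi and 5 for the MEKi interaction. The shares of all genes under this edgeR test are not given here. Without the filter on low counts it was 0 for MEKi against FGFRi over 1.5-fold, and for any difference 2 for XY 24 h against 0 h and 3 for the MEKi interaction. Leaving out each library gave 0 to 1 over 1.5-fold for the MEKi interaction, and for any difference 2 to 4 for XY against XX at 0 h, 2 to 6 for XY 24 h against 0 h and 1 to 2 for FGFRi against DMSO at 24 h. The cause was not tested.

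Same-numbered libraries did not deviate together (median r = -0.00857 over 62 pairs, 1 pair over 0.1, and 5 of 33 libraries correlated best with their own number), so the numbers were not taken to pair them. With the replicate block, XX 72 h against 0 h gave 1 member over 1.5-fold and 5 for any difference, and XX 24 h against 0 h gave 0 for any difference. Mga, Max and Suz12 lost the 1.5-fold call in XX germ cells (FDR = 0.210, 0.236 and 0.224). Low counts limit E2f6 and Cbx2 in XX 72 h DMSO.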
